A study of Mus musculus with 14 samples.

Results

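The genes described here are those that changed persistently when SOX9 was switched on in epidermal stem cells (EpdSCs). A gene was counted as persistently higher when its level in all 8 induced libraries, from W1, W2, W6 and W12, lay above both D0 libraries, and as persistently lower when all 8 lay below both. The table lists 54332 genes, and the 13110 whose average across all 10 libraries reached 1 TPM could be members. Of these, 1250 (9.53%) were persistently higher and 1089 (8.31%) were persistently lower, 2339 in all. TPM is a transcript abundance scaled so that every library has the same sum. The rule uses the levels themselves, so that the members differ from D0 is how they were chosen and not a finding.

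EpdSCs are the stem cells of the basal layer of the epidermis, where they divide and give rise to the suprabasal layers that cornify into the skin barrier. SOX9 is an HMG-box pioneer factor that can bind its motif in closed chromatin, and in skin development it marks the cells that become hair follicle stem cells (HFSCs) rather than EpdSCs. A gene that stays shifted for as long as SOX9 is present shows in RNA what outlasts the first response.

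The study asked how re-activation of SOX9 alters adult EpdSCs with time. All groups, D0 included, carried K14rtTA and TRE-myc-Sox9 on a CD1 background and were labelled male, so the controls are untreated mice of the same genotype and not mice without the transgenes. The *Krt14* promoter drives the DOX-dependent activator in skin epithelium in general, hair follicles included. D0 mice were taken at P21, and DOX was given from P21, which puts W1 at P28, W2 at P35 and W6 at P63, with 2 biological replicates at each timepoint. W12 cells came from newborn skin of this genotype that was grafted onto Nude hosts, left to heal and then treated with DOX for 12 weeks. Age and time on DOX rise together to W6, grafting goes with W12, and no RNA of untreated mice of the same age was analysed here, so that age, grafting and SOX9 cannot be told apart. The sorting scheme in the labels kept cells negative for CD31, CD45, CD117, CD140a and CD34 and high for CD49f and Ly6A.

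The basal markers *Krt5* and *Krt14* were among the abundant transcripts of every library, *Krt5* at 7343 to 14774 TPM. D0 replicate 2 goes against its label of male, with *Xist* at 4.61 and the Y-linked *Ddx3y* at 0.0278 TPM, whereas D0 replicate 1 had 0.00103 and 32.1 TPM. Both W12 libraries held *Xist* (5.51 and 3.50 TPM) as well as *Ddx3y* (10.97 and 12.9 TPM), and the host mice of the grafts were female. The summed endothelial, immune and erythroid markers were higher in both W12 libraries than in the other 8. The endothelial sum (7 markers, 5 of them tested) was 74.4 and 160 TPM at W12 against 0.164 to 2.15 in the others. The immune sum (12 markers, 5 of them tested) was 235 and 258 against 9.54 to 55.2. It rested on the tested markers *Cd74*, *H2-Aa*, *H2-Ab1*, *Cd68* and *Tyrobp*, with *Ptprc* at 0.0184 and 0.327 TPM at W12. The erythroid sum (5 markers) was 432 and 463 against 4.15 to 30.6. The fibroblast sum (9 markers, 2 of them tested) was 67.3 and 132 TPM at W12. It was 56.4 TPM in W6 replicate 2 and 2.12 to 5.19 in the other 7 libraries. At W12 and in W6 replicate 2 it rested on *Dcn* and *Vim*, and every other fibroblast marker was below 1 TPM. Since the libraries are of bulk RNA, fewer cells of a type and less RNA per cell cannot be told apart.

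Gene expression in the induced libraries differed from D0 in both directions. Antioxidant, wound keratin and cornified envelope genes were among the persistently higher genes, with *Gpx2* and *Krt6a* in front. Immediate-early genes, WNT and EGFR ligands, interleukin receptors and several epidermal transcription factors were among the persistently lower genes, with *Igfbp3* and *Il12rb2* in front. In limma, the mean of the 4 induced timepoint means was above D0 for 1978 of the 13110 genes (15.1%) and below it for 1623 (12.4%), at an adjusted p under 0.05 after Benjamini-Hochberg adjustment. Among the members, 1054 of 1250 persistently higher and 922 of 1089 persistently lower genes passed this test, which uses the same values as the rule and so adds no separate evidence for them. Their median change was 0.89 and −0.94 on the log2(TPM + 1) scale, against 0.04 over all genes tested. Adding 1 before taking logs shrinks the change of low genes.

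**Figure D1:**
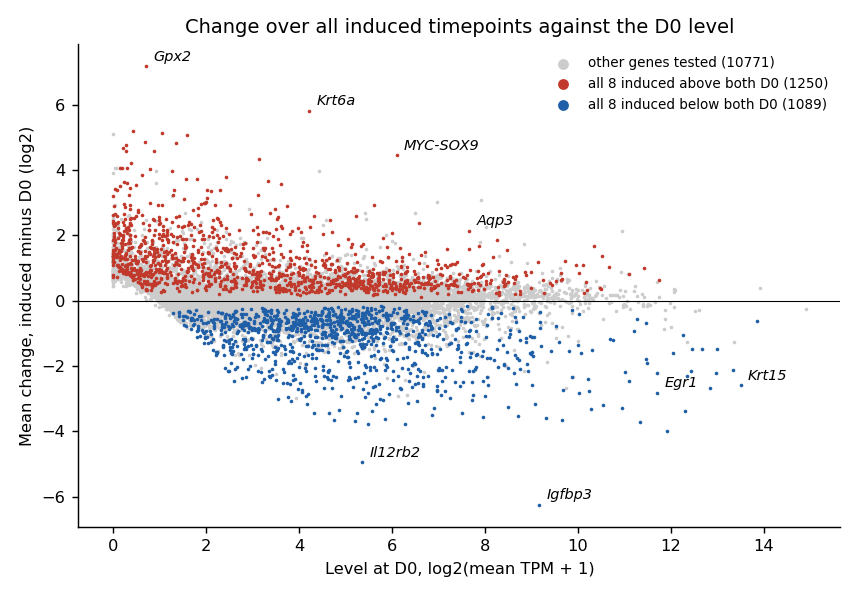
Each point is 1 of 13110 genes, with its D0 level on the horizontal axis as log2(mean TPM + 1) and its change, the mean of the induced timepoints minus D0 in log2(TPM + 1), on the vertical axis. The 1250 persistently higher genes (red) reach down to genes hardly seen at D0, the 1089 persistently lower genes (blue) lie at higher D0 levels, and other genes are grey.

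Persistently lower genes were the more abundant ones before induction, with a median of 27.3 TPM at D0, against 6.79 TPM for persistently higher genes and 15.8 TPM for all genes tested. After induction the order was turned, with medians of 13.2 and 19.3 TPM against 16.0 TPM. A gene near 0 TPM cannot fall far on this scale, and the filter on the mean admits genes that are near 0 at D0 if they are high later. Transcripts of persistently higher genes were shorter (median 2526 bases) and those of persistently lower genes longer (3459 bases) than over all genes tested (3043 bases), with median GC contents of 50.1%, 48.6% and 49.8%. Whether length or base composition has a part in membership was not tested. Genes on the X chromosome made up 2.32% of persistently higher and 3.03% of persistently lower genes, against 2.84% of all.

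The count of members depended on the pair of D0 libraries. Without D0 replicate 1, 3279 genes were persistently higher (25.0%) and 2360 lower (18.0%), and without D0 replicate 2, the library that goes against its label, 1630 (12.4%) and 1562 (11.9%). Without the W12 libraries 1957 were higher (14.9%) and 1328 lower (10.1%). Shares of all genes given below beside a count without a library are those of the same setting. The gene lists below were written with earlier results of these data known, so their shares are a description. The limma calls fell to 777 higher and 654 lower without D0 replicate 2. When all 8 induced libraries were fitted as 1 group, so that differences between timepoints counted as error, limma called 263 higher and 288 lower.

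The 15 widest gaps upwards, where the gap is the lowest induced minus the highest D0 value on log2(TPM + 1), were led by *Gpx2*, a selenium-dependent glutathione peroxidase best known from the gut epithelium (chr12:76792333-76795554, GRCm38). It was at 0.680 and 0.607 TPM at D0, 38.2 and 39.2 at W1, 190 and 214 at W2, 1349 and 231 at W6, and 817 and 650 at W12. All 8 induced libraries were far above D0, with a gap of 4.54 and a change of 7.19 ± 0.50 (SE, adjusted p = 5.48e-05 in limma). *Mfge8* (chr7:79133768-79149060), a secreted glycoprotein that links dying cells to phagocytes, went from 1.1599 and 1.63 TPM at D0 to 36.3 and 39.9 at W1 and then stayed between 27.7 and 49.4. Unlike *Gpx2*, *Mfge8* had its full change by W1, and the 4 induced timepoints did not pass the test of a difference among them (adjusted p = 0.415, limma F test).

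**Figure D2:**
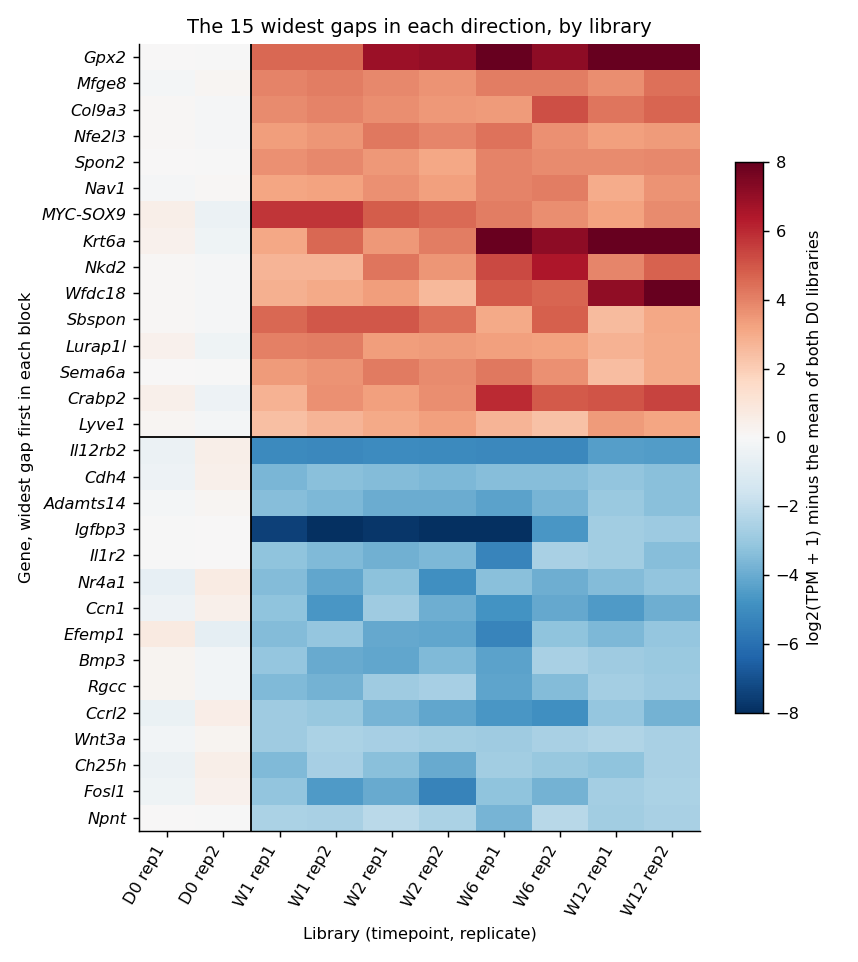
Rows are the 15 persistently higher and 15 persistently lower genes with the widest gaps, columns the 10 libraries, and colour is log2(TPM + 1) minus the mean of both D0 libraries. *Mfge8* and *Wnt3a* hold nearly 1 level from W1 on, *Gpx2* and *Krt6a* darken with time, and *Igfbp3* pales again at W12.

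*Col9a3* (chr2:180597790-180622189), a chain of the cartilage collagen IX, was at 0.218 and 0.0760 TPM at D0, then 11.1, 15.9 and 39.8 TPM as the lowest, median and highest induced library. *Spon2*, a secreted matrix protein, was at 9.09 and 9.005 TPM before DOX and 85.5, 135 and 160 TPM after induction. *Sbspon*, with somatomedin B and thrombospondin domains, was at 0.171 and 0.0615 TPM at D0, at 22.9 to 34.2 TPM at W1 and W2, and at 5.55 and 8.34 TPM at W12. Both differed among the induced timepoints in limma's F test (adjusted p = 0.0443 for *Spon2* and 0.0394 for *Sbspon*). *Wfdc18* (chr11:83709015-83711348), a small secreted protein of the whey acidic protein family, was at 0.288 and 0.140 TPM at D0, 7.87 and 9.01 at W1, 11.1 and 6.22 at W2, 36.0 and 29.4 at W6, and 168 and 331 at W12. It rose from W1 to W6 by 1.83 (adjusted p = 0.00854) and from W6 to W12 by 2.82 (adjusted p = 0.00241, limma, log2 scale).

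*Nfe2l3*, a CNC bZIP factor related to NRF2, was at 2.18 and 1.72 TPM at D0, then 27.6, 34.3 and 59.5 TPM as lowest, median and highest induced library. *Nkd2*, which dampens WNT signalling at Dishevelled, was at 0.403 and 0.206 TPM at D0, 7.57 and 7.39 at W1, 49.9 and 114 at W6, and 18.4 and 32.7 at W12. *Crabp2*, a carrier of retinoic acid, was at 10.3 and 5.31 TPM at D0, 56.8 and 106 at W1, 530 and 248.6 at W6, and 273 and 358 at W12. *Nkd2* and *Crabp2* were both higher at W6 than at W1, by 3.17 (adjusted p = 0.00268) and 2.21 (adjusted p = 0.0071) in limma. *Nav1*, a neuron navigator that binds microtubules, had a median of 11.2 TPM after induction against 0.0539 and 0.165 at D0. *Sema6a*, a transmembrane semaphorin, had a median of 16.7 against 0.432 and 0.399, and *Lurap1l* one of 46.1 against 5.02 and 2.81 TPM. *Lyve1*, a hyaluronan receptor used as a marker of lymphatic vessels, was at 0.308 and 0.0796 TPM before DOX and 5.05 to 11.5 after induction. The summed endothelial markers were at 2.15 TPM or less in all libraries up to W6, and *Lyve1* was at 5.05 to 10.3 TPM in the induced ones. The source of the *Lyve1* transcripts was not tested.

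The widest gap downwards was that of *Il12rb2* (chr6:67291318-67376188), a chain of the interleukin 12 receptor. It was at 27.0 and 53.1 TPM at D0, 0.163 and 0.111 at W1, 0.206 and 0.132 at W2, 0.105 and 0.112 at W6, and 0.824 and 0.749 at W12. The loss was nearly complete at W1 and was kept, with a gap of −3.94 and a change of −4.93 ± 0.24 (SE, adjusted p = 2.29e-05 in limma). *Igfbp3* (chr11:7206086-7213923), which binds insulin-like growth factors outside the cell, had the largest fall of the 1089 lower members, −6.25 ± 0.66 (SE, adjusted p = 0.00036). Its level was 551 and 595 TPM at D0, 2.22 and 1.01 at W1, 1.64 and 0.812 at W2, 1.32 and 21.8 at W6, and 81.2 and 76.8 at W12. *Igfbp3* was higher at W12 than at W6 by 3.46 (adjusted p = 0.0298), with W6 replicate 2 between the early and the late libraries. The summed fibroblast markers were at 3.29 TPM in W6 replicate 1, 56.4 in W6 replicate 2, and 67.3 and 132 at W12. The higher sums rested on *Dcn* and *Vim*, and the part of fibroblasts in the level of *Igfbp3* was not tested.

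*Il1r2*, a decoy receptor for interleukin 1, was at 410 and 420 TPM at D0, then 9.55, 36.9 and 68.7 TPM as lowest, median and highest induced library. *Cdh4*, or R-cadherin, was at 13.9 and 24.2 TPM before DOX and 0.513, 0.802 and 1.13 TPM after induction. *Wnt3a*, a ligand of canonical WNT signalling, was at 21.2 and 29.1 TPM at D0, then 2.59, 3.17 and 3.799 TPM after induction. *Cdh4* and *Wnt3a* did not pass the F test among induced timepoints (adjusted p = 0.628 and 0.77 in limma). *Adamts14*, a procollagen protease, had a median of 1.11 TPM after induction against 22.6 and 29.6 at D0. *Bmp3*, an atypical BMP that counters other BMPs, had one of 1.53 against 27.7 and 20.3, and *Efemp1*, or fibulin-3, one of 4.97 against 110 and 41.9 TPM. *Rgcc*, *Ccrl2*, *Ch25h* and *Npnt* had medians of 39.3, 2.14, 4.46 and 5.03 TPM against D0 means that were 6.99 to 18.2 times the induced means.

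The immediate-early genes *Nr4a1* and *Fosl1* were also among the 15. *Nr4a1*, an orphan nuclear receptor, was at 1517 and 3650 TPM before DOX and 77.0, 213 and 261 TPM as lowest, median and highest induced library. *Ccn1*, a matricellular protein formerly called CYR61, was at 2805 and 4956 TPM at D0, then 133, 233 and 518 TPM after induction. *Fosl1*, which encodes the AP-1 subunit FRA1, was at 613 and 993 TPM before DOX and 18.02, 69.6 and 136 TPM after induction. In each of these the D0 replicates differed from each other, replicate 2 being the higher, and both stayed above every induced library.

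Promoter sequences were read for the members, since genes that move together may share motifs near their start sites. In RefSeq promoters of GRCm38.p6, 250 bases before to 50 after the start, 9613 tested genes had a sequence, 908 of them persistently higher and 841 persistently lower. A SOX motif, ACAAAG or ACAATG on either strand, was in 182 of 908 persistently higher promoters, 18.1% of persistently lower and 18.8% of all tested promoters. The AP-1 motif TGANTCA was in 6.28%, 6.06% and 4.95%, the RUNX motif TGTGGT in 12.9%, 10.6% and 11.8%, and the RBPJ motif TGGGAA in 22.7%, 20.9% and 22.7%. The antioxidant element TGACNNNGC was in 14.2%, 15.7% and 14.4%, and the CArG box in 1.76%, 1.90% and 1.28%. The cAMP element TGACGTCA, which holds no match to the AP-1 letters, was in 1.87% of persistently higher, 4.40% of persistently lower and 3.33% of all promoters. Most shares of the members lay near the share of all promoters, and a match of letters is not a bound site. Sequences of 4 members are shown, each 250 bases before the start and 5′ to 3′ on the gene's strand, with the match in capitals. *Gpx2* (chr12:76795555-76795804, minus strand) and *Wfdc18* (chr11:83708754-83709003, plus strand) are persistently higher with a SOX match, *Sprr1a* (chr3:92485882-92486131, minus strand) is persistently higher with 2 AP-1 matches, and *Ch25h* (chr19:34475149-34475398, minus strand) is persistently lower with a cAMP element.
Gpx2: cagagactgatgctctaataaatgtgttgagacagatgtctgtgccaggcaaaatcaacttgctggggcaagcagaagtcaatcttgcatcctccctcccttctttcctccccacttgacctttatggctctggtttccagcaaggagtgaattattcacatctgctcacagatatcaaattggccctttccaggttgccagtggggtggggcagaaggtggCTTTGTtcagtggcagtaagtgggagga
Wfdc18: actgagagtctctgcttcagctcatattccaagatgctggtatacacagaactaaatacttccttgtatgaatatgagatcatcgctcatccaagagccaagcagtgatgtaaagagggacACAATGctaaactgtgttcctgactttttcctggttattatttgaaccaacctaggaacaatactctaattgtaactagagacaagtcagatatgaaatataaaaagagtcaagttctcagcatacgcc
Sprr1a: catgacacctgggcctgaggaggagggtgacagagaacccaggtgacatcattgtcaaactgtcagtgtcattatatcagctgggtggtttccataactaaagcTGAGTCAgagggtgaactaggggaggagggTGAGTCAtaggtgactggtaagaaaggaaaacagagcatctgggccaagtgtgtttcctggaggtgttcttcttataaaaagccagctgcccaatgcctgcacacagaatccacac
Ch25h: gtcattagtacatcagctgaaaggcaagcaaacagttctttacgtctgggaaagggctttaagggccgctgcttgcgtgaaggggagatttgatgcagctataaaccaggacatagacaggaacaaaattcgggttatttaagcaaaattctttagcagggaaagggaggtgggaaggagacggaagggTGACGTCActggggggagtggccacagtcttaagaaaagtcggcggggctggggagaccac

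The transgene itself, MYC-SOX9, was a member. It was at 89.6 and 45.6 TPM at D0, 3387 and 3414 at W1, 1892 and 1469 at W2, 1108 and 859 at W6, and 606 and 903 at W12. Every induced library was well above D0, by 4.45 ± 0.25 on average (SE, adjusted p = 2.53e-05 in limma), and the level fell from W1 to W6 by 1.80 (adjusted p = 0.00172). The *Sox9* row of the genome was not a member, at 11.5 and 9.47 TPM at D0 and 2.71 to 13.6 TPM after induction. Since the transgene holds the *Sox9* coding sequence, the split of shared reads between both rows is uncertain, at D0 as well. Of 10 SOX family rows tested, 2 were persistently higher, the transgene being one of them, and 1 was lower, where 9.53% and 8.31% of all genes were. *Sox13*, of the SOXD group, was at 0.335 and 0.661 TPM at D0, then 1.82, 2.94 and 10.6 TPM after induction, and *Sox6* of the same group at 48.6 and 36.6 TPM and then at 1.70, 7.37 and 15.2 TPM. Both passed the limma test, in opposite directions.

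Epidermal transcription factors were more often lower. Of 27 tested, 9 were persistently lower (33.3%, against 8.31% of all genes) and 1 was higher (3.70%, against 9.53%), with a median change of −0.54. In limma 2 rose and 14 fell, against 15.1% and 12.4% of all genes. *Trp63*, the master factor of stratified epithelia, was at 291 and 654 TPM at D0, between 209 and 275 at W1 and W2, and at 126 and 119 TPM at W12. *Gata3*, a regulator of epidermal and hair differentiation, was at 241 and 346 TPM at D0, 148 and 173 at W1, and 27.2 and 27.8 at W12. *Satb1*, a chromatin organizer of epidermal progenitors, was at 27.0 and 39.8 TPM at D0, 14.997 and 14.1 at W1, and 1.86 and 1.33 at W12. All 3 passed the limma test against D0, with changes of −1.27, −1.81 and −2.40, and *Trp63* rested on a narrow gap of −0.08. *Klf3*, *Klf4*, *Klf5*, *Tfap2c* and *Ovol1* were also lower, with changes of −0.59 to −1.66. The exception was *Ehf*, an ETS factor of epithelia, which rose from 14.9 and 18.95 TPM to 36.1 and 35.7 at W1 and 104 and 88.9 at W12.

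HFSC and outer root sheath genes held 5 persistently higher and 3 persistently lower members among 26 tested, 19.2% and 11.5%, against 9.53% and 8.31% of all genes, with a median change of 0.60. In limma 12 rose and 3 fell, against 15.1% and 12.4% of all genes. *Runx1*, a regulator of HFSC activation, was at 6.98 and 8.04 TPM at D0, 32.1 and 29.0 at W1, 74.0 and 53.8 at W2, 42.5 and 54.0 at W6, and 22.4 and 29.3 at W12. *Foxc1*, which keeps HFSCs quiescent, was at 4.64 and 2.76 TPM at D0, 26.6 and 26.5 at W2, and 8.25 and 9.25 at W12. Both had their highest library at W2 or W6, and both fell from W6 to W12, by 0.88 (adjusted p = 0.0226) and 1.45 (adjusted p = 0.00777). *Aqp3*, a channel for water and glycerol, was at 192 and 212 TPM before DOX and 715, 855 and 1200 TPM as lowest, median and highest induced library. *Bmp6* and *Krt17* were the other higher members, and *Krt15*, *Cxcl14* and *Col18a1* the lower ones. Without the W12 libraries 12 genes of this list were persistently higher (14.9% of all genes), and without D0 replicate 2, 8 (12.4% of all genes). Without D0 replicate 1, 6 were higher and 4 lower, both below the shares of all genes (25.0% and 18.0%).

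Of 4 wound and stress keratins tested, 3 were persistently higher, and none was lower, against 9.53% and 8.31% of all genes. *Krt6a* (chr15:101689910-101694307), a keratin of wounded skin and of the companion layer of the follicle, was at 22.1 and 13.2 TPM at D0, 153 and 429 at W1, 201 and 304 at W2, 4424 and 2603 at W6, and 4564 and 5380 at W12. *Krt6b* beside it was at 1.09 and 0.120 TPM at D0, 1.54 and 4.89 at W1, 169 and 113 at W6, and 1342 and 1330 at W12. Since *Krt6a* and *Krt6b* are nearly identical in their coding sequence, their split of shared reads is uncertain. Both were higher at W6 than at W1, by 3.72 (adjusted p = 0.00194) and 5.17 (adjusted p = 0.000476) in limma. *Krt17* was at 1147 and 1430 TPM at D0, then 2438, 3384 and 11556 TPM as lowest, median and highest induced library. *Krt16*, the fourth wound keratin, was not a member, with 43.7 TPM in one W2 library and 2578 in one W12 library against 189 and 201 at D0. Of the 23 basal keratin and hemidesmosome genes tested, *Krt5* and *Krt15* were persistently lower, a share near the 8.31% of all genes, and none was higher. *Krt15*, a basal keratin that also marks HFSCs, was at 11241 and 11928 TPM at D0, 10002 and 9055 at W1, 429 and 1350 at W6, and 322 and 242 at W12. *Krt5* changed little, from 14774 and 14609 to a median of 9903 TPM. In limma 1 gene of this list rose and 9 fell, against 15.1% and 12.4% of all genes. Without D0 replicate 1, 8 were persistently lower (18.0% of all genes) and 1 higher (25.0%), and without the W12 libraries 4 were lower (10.1%).

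**Figure D3:**
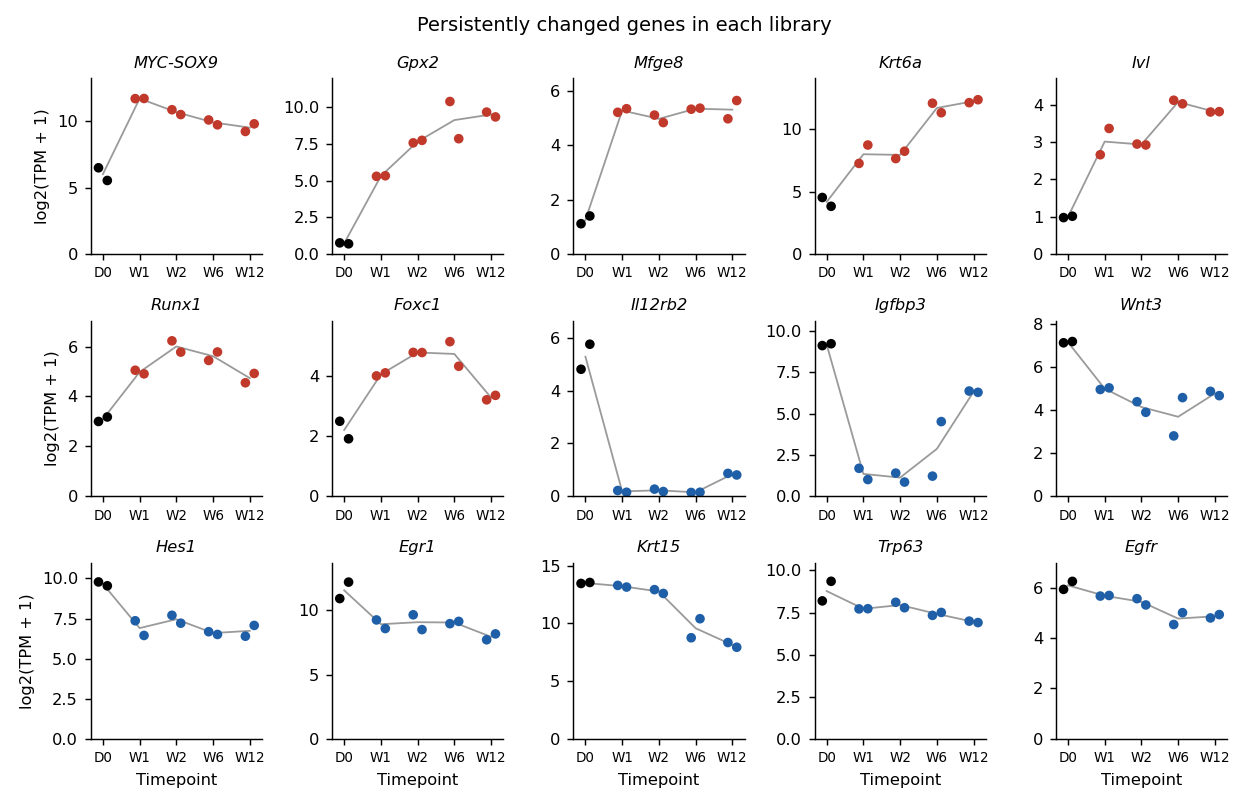
Each panel is a member, with log2(TPM + 1) on the vertical axis and timepoints, evenly spaced and not to scale in weeks, on the horizontal axis; points are the 2 libraries of each timepoint (black at D0, red where persistently higher, blue where lower) and grey lines join the timepoint means. *Mfge8* and *Il12rb2* reach their level at W1, *Krt15* moves most between W2 and W6, and *Igfbp3* is higher again at W12.

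Several cornified envelope genes were higher, and the spinous keratins did not pass the test. Of 22 suprabasal and cornified genes tested, 9 were persistently higher (40.9%, against 9.53% of all genes), none was lower, and the median change was 1.26. In limma 13 rose, 2 fell and 7 were not called, where 15.1% of all genes rose and 12.4% fell. Without D0 replicate 2, 10 were persistently higher and 2 lower (12.4% and 11.9% of all genes), and without D0 replicate 1, 13 and 1 (25.0% and 18.0%). The summed level of the list was 10200 and 4200 TPM in the D0 libraries and 6740 to 20000 TPM after induction, so that the sums overlap. *Ivl*, or involucrin, an early envelope scaffold, was at 0.963 and 1.01 TPM at D0, 5.33 and 9.32 at W1, 16.4 and 15.3 at W6, and 13.0 and 13.1 at W12. *Cnfn*, or cornifelin, was at 4.42 and 4.40 TPM at D0, 20.6 and 32.7 at W1, 170 and 32.3 at W6, and 678 and 640 at W12. *Sprr1b*, a small proline-rich envelope protein, was at 3.53 and 0.502 TPM at D0, 7.20 and 25.97 at W1, 473 and 155 at W6, and 694 and 741 at W12. The other members were *Sprr1a*, *Sprr2d*, *Sbsn*, *Tgm1*, *Klk7* and *Cdsn*, with changes of 1.14 to 3.45. The keratins of the spinous layer were no members, with a change of −0.06 for *Krt1* (adjusted p = 0.931) and −0.30 for *Krt10* (adjusted p = 0.462). In *Cdsn* and *Klk7*, W6 replicate 1 was at 31.0 and 421 TPM and W6 replicate 2 at 3.54 and 131 TPM.

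Immediate-early and stress genes, which cells switch on within minutes of a stimulus, were lower as a group. Of 39 tested, 25 were persistently lower (64.1%, against 8.31% of all genes), 1 was higher, and the median change was −1.66. In limma 29 fell and 1 rose, against 12.4% and 15.1% of all genes. Their summed level was 45400 and 76900 TPM at D0 and 11300 to 21000 TPM in the induced libraries. The AP-1 subunit gene *Fos* was at 7385 and 8547 TPM at D0, 2036 and 1054 at W1, and 1394 and 1606 at W12. *Egr1*, a zinc-finger factor of growth factor response, was at 1932 and 4700 TPM at D0, 609 and 382 at W1, and 208 and 286 at W12. *Atf3*, a stress-induced repressor, was at 3508 and 6572 TPM at D0, 673 and 152 at W1, and 726 and 920 at W12. *Junb* was at 5321 and 9271 TPM before DOX and 656, 1147 and 1629 TPM after induction. W1 replicate 1 was higher than W1 replicate 2 in all 4, and both stayed below D0. *Fosb*, *Fosl2*, *Jun*, *Jund*, *Klf2*, *Klf4*, *Klf6*, *Ier2*, *Btg2*, *Myc*, *Maff*, *Csrnp1*, *Dusp1*, *Dusp5*, *Zfp36*, *Nfkbia*, *Socs3*, *Dnajb1* and *Hspb1* were lower too, with changes of −1.14 to −3.59. *Sgk1*, a kinase induced by glucocorticoid, was the exception, at 71.0 and 70.1 TPM at D0, then 136, 211 and 335 TPM after induction. The count of lower genes was 27 without D0 replicate 2 (11.9% of all genes), 29 without D0 replicate 1 (18.0%), where 4 were higher (25.0%), and 27 without the W12 libraries (10.1%).

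**Figure D4:**
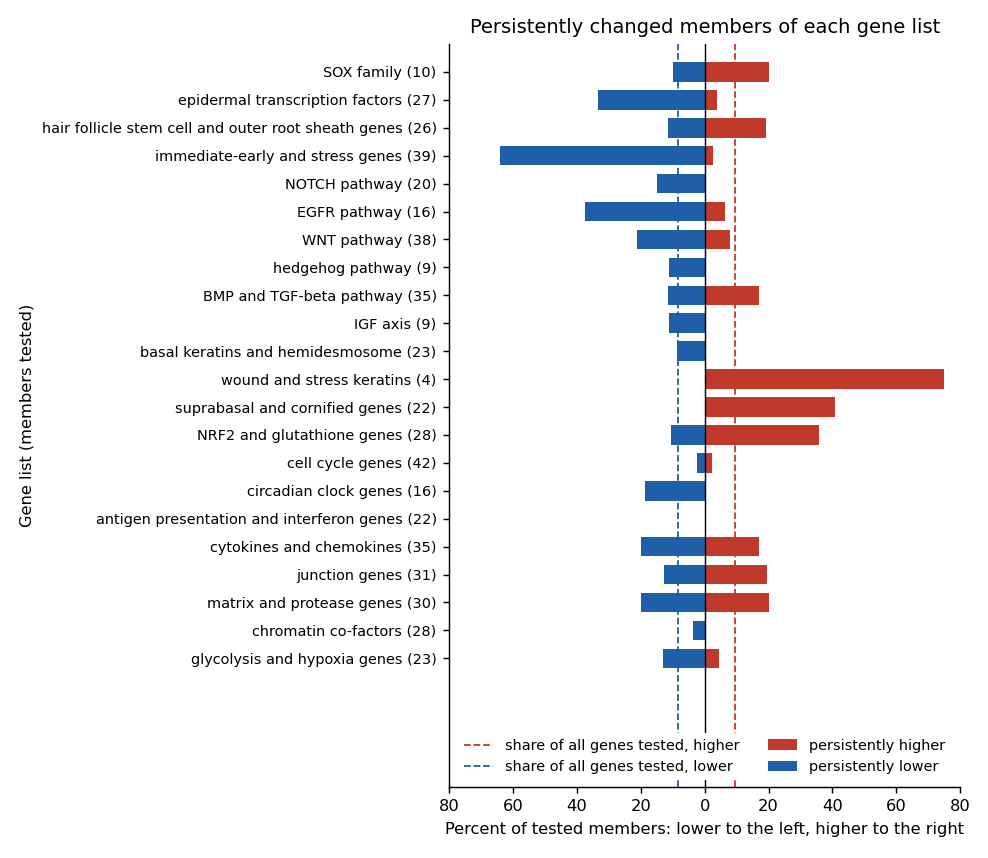
Bars give, for each gene list (number of members tested in brackets), the percent of tested members that were persistently lower, to the left, and higher, to the right; dashed lines mark the shares of all 13110 genes, 8.31% and 9.53%. Immediate-early genes reach 64.1% on the lower side, and suprabasal and NRF2 genes 40.9% and 35.7% on the higher side.

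Of 38 WNT pathway genes tested, 8 were persistently lower (21.1%, against 8.31% of all genes) and 3 higher (7.89%, against 9.53%), and 6 of the lower genes encode ligands. In limma 14 fell and 8 rose, against 12.4% and 15.1% of all genes. *Wnt3* (chr11:103774150-103817957) was at 138 and 144 TPM at D0, 29.9 and 31.6 at W1, 19.9 and 13.9 at W2, 5.96 and 22.8 at W6, and 28.2 and 24.4 at W12. *Wnt4*, with a role in basal EpdSC renewal, was at 103 and 106 TPM before DOX and 27.7, 41.7 and 49.3 TPM after induction. *Wnt6* was at 37.4 and 38.1 TPM at D0, 14.9 and 15.4 at W1, and 3.19 and 3.05 at W12. *Wnt7b* was at 86.8 and 131 TPM at D0, then 9.97, 19.7 and 46.9 TPM after induction. The D0 replicates of *Wnt3*, *Wnt4* and *Wnt6* were close to each other, and no induced library came near them. *Wnt3a* and *Wnt10b*, the Frizzled receptor gene *Fzd10* and the co-receptor gene *Ror1* were also lower. The higher genes were *Nkd2*, *Ctnnb1*, which encodes beta-catenin and rose by 0.35 with a gap of 0.04, and *Dkk3*, a secreted Dickkopf relative. *Dkk3* was at 4.64 and 16.0 TPM at D0, 82.9 and 84.0 at W1, and 24.3 and 26.5 at W12. With D0 replicate 1 omitted, 13 WNT genes were persistently lower (18.0% of all genes), without D0 replicate 2, 5 were higher (12.4%), and without the W12 libraries 9 were higher (14.9%) and 9 lower (10.1%).

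Of 16 EGFR pathway genes tested, 6 were persistently lower (37.5%, against 8.31% of all genes) and 1 was higher (6.25%, against 9.53%), and in limma 6 fell and 2 rose, against 12.4% and 15.1%. *Epgn*, or epigen, was at 300 and 197 TPM at D0, 14.4 and 14.2 at W1, 9.89 and 8.11 at W2, 17.7 and 24.7 at W6, and 47.9 and 62.2 at W12. *Hbegf*, which encodes heparin-binding EGF-like growth factor, was at 181 and 317 TPM at D0, 24.2 and 21.6 at W1, and 116 and 95.8 at W12. *Nrg1*, or neuregulin 1, a ligand of ERBB3 and ERBB4, was at 1.12 and 2.62 TPM at D0, 2.88 and 4.93 at W1, 36.3 and 30.9 at W6, and 44.4 and 42.7 at W12. *Epgn* and *Hbegf* were thus closer to D0 at W12 than at W1, and *Nrg1* was farther from it. The receptor gene *Egfr* was at 59.9 and 74.9 TPM at D0, 49.6 and 50.5 at W1, and 26.7 and 29.4 at W12. The feedback inhibitors *Errfi1*, *Spry1* and *Spred2* were lower, with changes of −2.07, −1.29 and −1.36.

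Of 35 BMP and TGF-beta pathway genes tested, 6 were persistently higher (17.1%, against 9.53% of all genes) and 4 lower (11.4%, against 8.31%), and in limma 7 rose and 7 fell, against 15.1% and 12.4%. *Bmp2*, which inhibits HFSC activation, was at 49.3 and 56.2 TPM at D0, 12.7 and 10.8 at W1, 2.43 and 2.92 at W6, and 6.52 and 6.77 at W12. *Bmp4* was at 74.9 and 66.8 TPM at D0, 33.8 and 41.5 at W1, 1.31 and 6.73 at W6, and 8.35 and 8.15 at W12. *Inhbb*, which encodes the activin beta-B chain, was at 2.75 and 2.37 TPM before DOX and 8.83, 25.3 and 35.2 TPM after induction. *Inhba*, the beta-A chain, was at 0.272 and 0.308 TPM at D0, between 1.46 and 6.47 from W1 to W6, and at 64.7 and 45.7 at W12. Both BMPs fell from W1 to W6, by 1.79 (adjusted p = 0.00141) and 3.19 (adjusted p = 0.00372), and *Inhba* rose from W6 to W12 by 3.602 (adjusted p = 0.00188). *Bmp6*, *Bmp7*, *Smad6* and *Id4* were the other higher members, where *Id4* had an adjusted p of 0.209 and 80.6 TPM in W6 replicate 2 alone. *Tgfbr2*, a receptor of TGF-beta, and *Id3*, a target of BMP, were lower with changes of −1.18 and −1.61. With D0 replicate 1 omitted, 7 genes of this list were persistently higher, below the 25.0% of all genes, and 10 lower (18.0% of all genes). Without the W12 libraries 8 were higher (14.9%) and 7 lower (10.1%).

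In the NOTCH pathway, 3 of 20 genes tested were persistently lower, where 8.31% of all genes were, and none was higher. In limma 5 of the 20 fell, against 12.4% of all genes, and none rose. *Hes1*, the main NOTCH target in epidermis, was at 880 and 744 TPM at D0, 163 and 86.0 at W1, 207 and 147 at W2, 101 and 89.9 at W6, and 83.1 and 133 at W12. *Dll1*, a ligand, was at 54.5 and 136 TPM at D0, 37.6 and 22.8 at W1, and 8.64 and 11.2 at W12. *Pofut1*, which adds the fucose that NOTCH receptors need, was at 8.09 and 9.89 TPM at D0, then 3.30 to 7.65 after induction. *Notch1* was no member, above D0 in both W1 libraries (46.6 and 50.3 against 21.2 and 39.7 TPM) and below it at W12 (4.87 and 7.39 TPM). With D0 replicate 1 omitted, 7 genes of the list were persistently lower (18.0% of all genes). In the hedgehog pathway 1 of 9 was lower, the co-receptor gene *Cdon*, and in the IGF axis 1 of 9, *Igfbp3*, counts too small to set apart from the 8.31% of all genes.

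Genes of the NRF2 and glutathione list, which detoxify oxidants and electrophiles, were often higher. Of 28 tested, 10 were persistently higher (35.7%, against 9.53% of all genes) and 3 lower (10.7%), with a median change of 0.65. In limma 15 rose and 3 fell, against 15.1% and 12.4% of all genes. *Mgst1*, a microsomal glutathione transferase, was at 44.2 and 28.3 TPM at D0, 136 and 129 at W1, 338 and 344 at W2, 304 and 230 at W6, and 158 and 225 at W12. *Akr1b8*, an aldo-keto reductase, was at 13.1 and 9.77 TPM at D0, 24.6 and 25.2 at W1, 74.2 and 76.2 at W6, and 165 and 190 at W12. *Nqo1*, a quinone reductase, was at 17.5 and 13.9 TPM at D0, 26.02 and 18.5 at W1, 79.3 and 98.0 at W6, and 73.9 and 74.9 at W12. *Akr1b8* and *Nqo1* rose further from W1 to W6, by 1.56 (adjusted p = 0.000476) and 1.96 (adjusted p = 0.000797). *Gclm*, *Gstm5*, *Prdx1*, *Cbr3*, *Gpx4* and *Hmox1* completed the higher members beside *Gpx2*, with changes of 0.64 to 1.74. *Cbr2*, *Gsta2* and *Gsr* were lower, and *Nfe2l2*, which encodes NRF2 itself, changed by −0.06 (adjusted p = 0.74).

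Of 35 cytokine and chemokine genes tested, 6 were persistently higher (17.1%, against 9.53% of all genes) and 7 lower (against 8.31%), and in limma 11 rose and 10 fell, against 15.1% and 12.4%. *Slpi*, a secreted protease inhibitor, was at 0.527 and 0.148 TPM at D0, 2.10 and 5.80 at W1, 141 and 66.9 at W6, and 1126 and 1566 at W12. *S100a9*, one chain of calprotectin, was at 0.0949 and 0.215 TPM at D0, 1.39 and 7.41 at W1, 65.2 and 31.8 at W6, and 525 and 503 at W12. Both rose from W1 to W6, by 4.42 (adjusted p = 0.00171) and 3.38 (adjusted p = 0.00607) in limma, and again to W12. The immune marker sum, which rested on the 5 tested markers, was also at its highest there. The part of immune cells was not tested. *Il33*, an alarmin of barrier tissue, was at 113 and 154 TPM at D0, 45.2 and 48.4 at W1, 1.95 and 20.5 at W6, and 75.7 and 50.2 at W12. *Il34*, on which Langerhans cells depend, was at 60.9 and 109 TPM at D0, 23.8 and 32.03 at W1, and 10.8 and 4.91 at W12. *Cxcl14*, a chemokine of basal keratinocytes, was at 677 and 1393 TPM at D0, 558 and 541 at W1, 51.9 and 52.1 at W6, and 47.6 and 49.2 at W12. *Il33* rose from W6 to W12 by 2.98 (adjusted p = 0.0305), staying below D0, and *Cxcl14* was near its W6 level at W12. The other members were *Il18*, *Cxcl2*, *Lcn2* and *Wfdc18*, higher, and *Il1rn*, *Il1r2*, *Il12rb2* and *Il20rb*, lower. Without D0 replicate 1 the counts were 11 and 10 (25.0% and 18.0% of all genes).

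Junction genes held 6 persistently higher and 4 lower members of 31 tested (19.4% and 12.9%, against 9.53% and 8.31% of all genes), and matrix and protease genes 6 and 6 of 30. In limma 8 junction genes rose and 6 fell, and 12 and 8 of the matrix genes, against 15.1% and 12.4% of all genes. The desmosomal cadherins divided, with *Dsc1* and *Dsc2* higher and *Dsg1a* and *Dsg2* lower. *Dsc1* was at 5.04 and 2.96 TPM before DOX and 10.9, 25.3 and 52.9 TPM after induction, *Dsg2* at 47.7 and 64.8 and then at 15.46, 27.2 and 41.5. The claudin genes *Cldn3* and *Cldn4* were higher, while *Cldn12*, with an adjusted p of 0.147, and *Tjp1* were lower. The 2 CCN genes on the matrix list went opposite ways, *Ccn1* falling as given above and *Ccn2* rising. *Ccn2*, or CTGF, was at 7.27 and 15.3 TPM at D0, 248 and 307 at W1, 87.6 and 96.9 at W6, and 45.0 and 52.1 at W12. *Thbs1*, or thrombospondin 1, was at 787 and 1679 TPM at D0, 329 and 192 at W1, and 53.9 and 61.3 at W12. *Mmp9*, a gelatinase, was at 0.125 and 0.0332 TPM at D0, 0.835 and 0.790 at W1, 3.56 and 2.23 at W6, and 36.5 and 50.8 at W12. *Mmp9* is made by immune cells as well. The immune marker sum, which rested on the 5 tested markers, was 235 and 258 TPM at W12. The part of immune cells in the W12 level of *Mmp9* was not tested. *Fbln1*, *Fbln2*, *Vcan* and *Timp2* were higher, and *Thbs2*, *Adam8*, *Plat* and *Serpinb2* lower. With D0 replicate 1 left out, 8 junction genes were persistently higher and 8 lower, and 7 and 8 of the matrix genes. The higher shares then lay near the 25.0% of all genes, where 18.0% of all genes were lower.

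Of 42 cell cycle genes tested, only *Mcm6*, a helicase subunit, was persistently higher and only *Cdkn1a*, which encodes p21, was lower, against 9.53% and 8.31% of all genes. *Cdkn1a* was at 971 and 1540 TPM at D0, then 300 to 604 after induction. When D0 replicate 1 was left out, 18 cell cycle genes were persistently higher (25.0% of all genes), and without the W12 libraries 5 (14.9%). In limma 9 of them rose and 1 fell, against 15.1% and 12.4% of all genes. None of 22 antigen presentation and interferon genes was a member in either direction, against 9.53% and 8.31% of all genes, and in limma 7 fell and none rose, against 12.4% and 15.1%. The persistent count was 7 lower without D0 replicate 1 (18.0% of all genes) and also 7 without the W12 libraries (10.1%). Among 28 chromatin co-factors 1 was lower (3.57%, against 8.31% of all genes), the X-linked demethylase gene *Kdm6a*, which escapes X inactivation, and in limma 4 fell and none rose. *Kdm6a* was at 21.9 TPM in D0 replicate 1 and at 43.2 in replicate 2, the library with *Xist*, and at 9.90 to 15.8 after induction. Of 16 clock genes, *Arntl*, *Nfil3* and *Bhlhe40* were lower (18.8%, against 8.31% of all genes), and of 23 glycolysis and hypoxia genes *Eno1* was higher and *Hk1*, *Pfkp* and *Adm* lower. After D0 replicate 1 was left out, 9 clock genes, 7 glycolysis and hypoxia genes and 5 chromatin co-factors were lower (18.0% of all genes) and 7 glycolysis and hypoxia genes higher (25.0%). Without the W12 libraries, 9 glycolysis and hypoxia genes were lower (10.1% of all genes) and 7 chromatin co-factors higher (14.9%). None of the 4 sorting gate genes tested was a member, and in limma 2 rose and 1 fell, against 15.1% and 12.4% of all genes.

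Markers of other cells were members in a few cases. *Vim* (fibroblast list), *Tie1* (endothelial) and *Krt8* (Merkel cell) were persistently higher, at 104, 8.76 and 145 TPM in W12 replicate 2 but at no more than 4.14, 0.0891 and 5.84 TPM in the induced libraries up to W6. *Tie1* was listed at 0 in both D0 libraries and met the filter of 1 TPM only through W12, so that any level above 0 up to W6 sufficed. Their mean change was thus largely that of W12. Of 5 sebocyte markers tested *Scd3* and *Mgst1* were higher and *Fasn* was lower, and of 5 hair shaft and inner root sheath markers tested *Krt27* was higher and *Gata3* and *Msx2* were lower, against 9.53% higher and 8.31% lower of all genes. The summed sebocyte markers were 135 and 145 TPM at D0 and 223 to 454 after induction, mostly *Mgst1* in the induced libraries. Those of hair shaft and inner root sheath were 259 and 361 TPM at D0 and 33.9 to 190 after induction. *Gata3*, also listed as an epidermal factor, made up most of this latter sum at D0, W1 and W12. The part of sebocytes and of hair shaft or inner root sheath cells in the results was not tested. No melanocyte, immune or erythroid marker was a member.

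The rule places both W1 libraries of every member beyond D0, so a change at W1 is fixed by the selection, and the values by timepoint are a description. The median change of persistently higher genes at W1, W2, W6 and W12 was 0.66, 0.78, 1.03 and 0.89, and that of persistently lower genes −0.68, −0.83, −1.12 and −1.06. At W1, 1021 of 1250 higher genes (81.7%) and 893 of 1089 lower genes (82.0%) had at least 50% of their mean change over the timepoints. The widest of the 4 changes was at W6 for 516 higher (41.3%) and 407 lower genes (37.4%), at W12 for 365 and 386, at W2 for 227 and 199, and at W1 for 142 and 97. Over all genes tested, the widest change was at W6 for 26.8%, at W12 for 42.8%, at W2 for 17.1% and at W1 for 13.3%. All genes tested had medians between −0.08 and 0.09 at every timepoint.

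**Figure D5:**
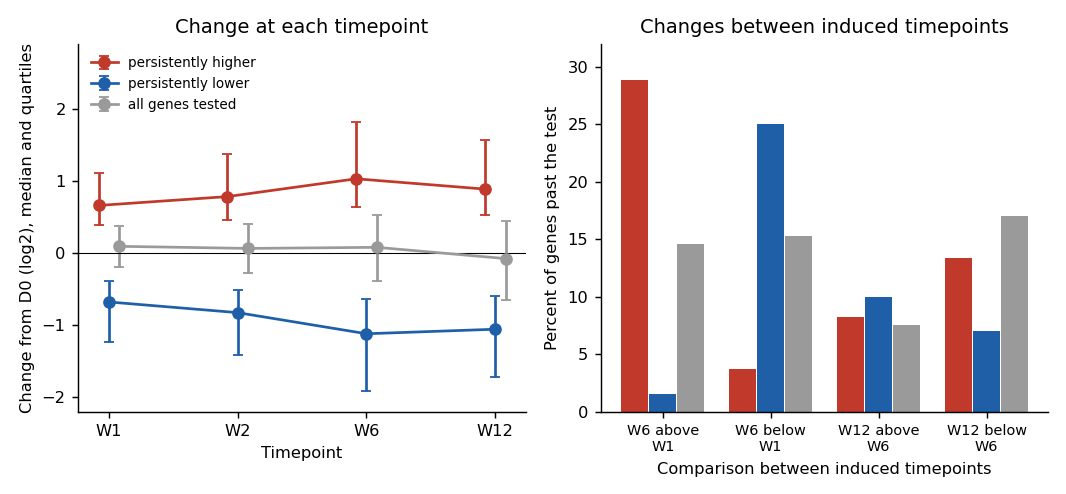
Left, the change from D0 in log2(TPM + 1) at each timepoint (median, with bars from the first to the third quartile) for persistently higher (red), persistently lower (blue) and all tested genes (grey). Right, the percent of each set that passed the limma test between induced timepoints: 28.9% of higher genes were above W1 at W6, against 14.6% of all genes.

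To ask whether members still moved after W1, the 8 induced libraries were fitted without D0. The F test among W1, W2, W6 and W12 passed for 601 persistently higher (48.1%) and 467 persistently lower genes (42.9%), against 7274 of all genes tested (55.5%). From W1 to W6, 361 higher genes (28.9%) rose further and 46 (3.68%) fell, against 1917 (14.6%) and 2006 (15.3%) of all genes. Of the lower genes, 272 fell further and 17 (1.56%) rose. From W6 to W12, 103 higher genes (8.24%) rose and 167 (13.4%) fell, against 990 (7.55%) and 2231 (17.0%) of all genes, and of the lower genes 109 rose and 76 (6.98%) fell. From W1 to W6 the members thus moved away from D0 more often than back. From W6 to W12 the shares of higher genes were near or below those of all genes in both directions. The rule used these libraries too, which bounds how far a member can come back towards D0, so these shares are a description. Without the W12 libraries the F test passed for 3045 genes.

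Members near the limits of the rule were hardly apart from genes outside it. The narrowest gap among higher genes was that of *Mettl22*, a methyltransferase gene, with 7.922 TPM in one W1 library against 7.921 at D0. Among lower genes it was that of *Gnai1*, a G protein subunit gene, with 117.602 TPM in one W1 library against 117.61 at D0. *Txndc15*, just outside, had 43.8481 TPM in one W2 library against 43.849 at D0. The gap was small for many members, with a median of 0.19 for higher and 0.24 for lower genes, and 106 higher and 129 lower genes had a gap of at least 1. The mean level of *Zbed5* was just inside the filter, at 1.00071 TPM, and that of *Slc5a3* just outside, at 0.9989 TPM.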

How the data were processed

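RNA was sequenced from sorted EpdSCs with a low-input SMARTer kit. Per the labels and the study's methods, the authors trimmed reads with Skewer, quantified them with Salmon (version 1.4.0) against GENCODE M24 transcripts of GRCm38 with the transgene as its own entry, and summed transcripts to genes with Tximport (version 1.12.3). The deposited values are TPM, which are scaled to the same sum in every library. Sequencing depth is therefore unknown, and no counting interval is given. The study tested counts, and the TPM here were tested with limma instead. A second deposited table, of placode libraries, holds the authors' own fold changes and p-values and was not used, and the 4 placode libraries were not analysed here.

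Genes averaging 1 TPM or more across the 10 libraries were taken as log2(TPM + 1). In limma 3.58.1 (R 4.3.3, eBayes with a trend), 5 timepoint means were fitted and the mean of the 4 induced means was compared with D0. A second fit of the 8 induced libraries gave the F test and the contrasts between timepoints. P-values were adjusted by the Benjamini-Hochberg method over all genes tested, with 0.05 as threshold. Replicates were labelled biological, with 2 per timepoint, which limits the estimate of spread. Both fits were tested on simulated data.

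Named genes are the 15 with the widest gap in each direction that passed limma, leaving out predicted genes and pseudogenes (3 higher, 1 lower), the members of gene lists, the transgene and the genes at the limits of the rule. Some members of the lists are counted but not reported here by name. The members and lists were chosen with earlier results of these data known. Positions are GENCODE gene coordinates of GRCm38, and promoters are from RefSeq (GRCm38.p6). Alternatives changed the pseudocount, the filter, the scaling, the trend, the replicate block, the grouping and the libraries used. Replicate numbers mark different mice, and the correlation of same-numbered deviations was −0.129 to 0.182 over pairs of timepoints.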

Additional observations from a re-analysis of the deposited data

Results flagged for a closer look

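In 15 of the 30 genes with the widest gaps, the change from D0 differed between the induced timepoints, by limma's F test among W1, W2, W6 and W12 with Benjamini-Hochberg adjustment over all genes tested. The share of all tested genes that passed was 55.5%. Among persistently higher genes the adjusted p was 0.00541 for *Gpx2*, 0.0443 for *Spon2*, 0.000917 for MYC-SOX9, 0.000564 for *Krt6a* and 0.00422 for *Nkd2*. It was 0.000241 for *Wfdc18*, 0.0394 for *Sbspon*, 0.00152 for *Lurap1l*, 0.0168 for *Sema6a*, 0.00534 for *Crabp2* and 0.0301 for *Lyve1*. Among persistently lower genes it was 0.00687 for *Igfbp3*, 0.0117 for *Rgcc*, 0.00747 for *Ccrl2* and 0.0483 for *Fosl1*.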

How the results depend on the processing

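The limma count against D0 (3601) was 2074 with all genes above 0 TPM (1084 higher, 990 lower), 1559 with an absolute log2 change of at least 1 (872 and 687), and 551 with 2 groups (263 and 288). Leaving out 1 library gave 1431 to 4247 (777 to 2457 higher, 654 to 1881 lower), with the lowest without D0 replicate 2 and the highest total without D0 replicate 1. Without the W12 libraries 998 genes were lower. Persistent genes (2339) numbered 235 with a gap of at least 1 (106 and 129). Leaving out 1 library gave 2403 to 5639 (1287 to 3279 higher, 1116 to 2360 lower), and fewer libraries make the rule easier to meet. Without the W12 libraries 1957 were higher. The F test (7274) called 4496 genes with an absolute log2 change of at least 1, 3045 without the W12 libraries, and 4969 to 8756 with 1 library left out. With the replicate block the counts were 3120 against D0 (1704 and 1416) and 6858 in the F test, and no pairing of the mice is given. The share of higher calls was 54.9%, against 47.7% with 2 groups. Of the members, 2098 met the rule when libraries were scaled by median ratios and 1958 when their quantiles were made equal. Counted anew, 1173 genes were persistently higher and 1215 lower with median ratios, and 1050 and 1218 with equal quantiles. Lower genes thus outnumbered higher ones under both scalings. Of 569 alternative values for the 30 named genes with the widest gaps, 568 kept direction and call, none reversed, and *Wfdc18* with 2 groups had an adjusted p of 0.091. Alternatives for the gene lists were chosen after seeing the data. Depth is unknown, so levels near 0 TPM carry an unknown counting error.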

Other observations

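The families in this paragraph were chosen after their values were seen, and their counts stand against 9.53% persistently higher and 8.31% persistently lower among all genes tested. Subunits of the proteasome, the protease complex that degrades ubiquitin-tagged proteins, were persistently higher in 9 of 21 genes of the 19S cap (42.9%) and 4 of 17 of the 20S core (23.5%), and none was lower. Without D0 replicate 1, where 25.0% of all genes were higher and 18.0% lower, the counts were 18 and 14, with 2 of the core lower. Of 32 genes encoded by the mitochondrial genome, 11 were persistently higher (34.4%) and none lower, and without D0 replicate 1, 17 were higher and 1 was lower (25.0% and 18.0% of all genes). Of 13 KLF zinc-finger factors, 8 were persistently lower (61.5%) and none higher, *Klf2*, *Klf3*, *Klf4*, *Klf5*, *Klf6*, *Klf9*, *Klf11* and *Klf16*. *Klf2*, *Klf4* and *Klf6* were also counted on the immediate-early list, and *Klf3*, *Klf4* and *Klf5* on the epidermal factor list. Of 42 interleukin and interleukin receptor genes, 12 were persistently lower and 4 higher (9.52%, near the share of all genes). Without D0 replicate 1 the higher count was 8, below the 25.0% of all genes, and without the W12 libraries 7, against 14.9%.

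Some members with the same direction were neighbours among tested protein-coding genes. With chromosome 18 not used, 48 runs of at least 3 neighbours held 162 members. *Il1r2*, *Il1r1* and *Il1rl2* formed a run of persistently lower genes (chr1:40074079-40367562), and *Krt90*, *Krt6b* and *Krt6a* a run of persistently higher ones (chr15:101552356-101694307). How many such runs an unordered genome would hold was not tested.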
